A study of Homo sapiens with 14 samples.

Results

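PC3 prostate cancer cells given SEL120-34A, a small molecule that blocks CDK8 and CDK19 (the kinases of the Mediator complex), were compared with PC3 cells given the solvent dimethylsulfoxide (DMSO). The members were the 6495 genes, of 62703 in the count table, with 20 or more counts in at least 1 of the 2 PC3 libraries. The treated cells received SEL120-34A at 1.5 µM for 3 days and the control cells received DMSO for the same 3 days, with 1 library per arm. PC3 is an established line from a bone metastasis that lacks the androgen receptor and does not respond to enzalutamide, a drug that blocks this receptor. The series also held LNCaP cells (androgen-dependent, enzalutamide-sensitive) and 22Rv1 cells (enzalutamide-resistant), treated in the same way with 3 libraries per arm, 14 libraries in all. The libraries were made by BRB-seq, which tags the 3′ ends of transcripts of barcoded, pooled samples. Each PC3 value came from a single library, and the culture conditions in the labels are written for 22Rv1 only. With 1 library per arm there was no replicate check and no p-value in PC3, so all PC3 differences compare these 2 libraries.

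Mediator is a large complex that links transcription factors bound at enhancers to RNA polymerase II. CDK8 or CDK19, with cyclin C, MED12 and MED13, forms a kinase module that docks onto Mediator and can raise or lower transcription depending on the gene. The module is known for its part in responses to signals, among them interferon, TGF-beta, WNT, serum and NF-kB, and PC3 cells are known for a high basal output of NF-kB dependent cytokines.

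The libraries labelled PC3 carried the markers of that line. Of 10 genes known to be higher in PC3, among them VIM, CAV1, GSTP1 and PLAU, all had counts in both PC3 libraries. Levels are in CPM, a count relative to the library's size and scaled between libraries by the trimmed mean of M values (TMM). The summed level of the 10 markers was 9714 CPM with DMSO and 8525 CPM with SEL120-34A, of which PLAU alone gave 6446 and 5003 CPM. IL32 went against the label, with 4 and 2 counts (4.35 and 3.51 CPM) in PC3 and 15.5 ± 2.87 and 12.7 ± 7.90 CPM (SD, n = 3) in the LNCaP arms. The sum over the 10 was 67.6 to 116 CPM over the 12 libraries of the other lines. For 8 genes of androgen-responsive prostate cells the sum was 67.5 CPM (DMSO) and 66.6 CPM (SEL120-34A) in PC3, against 464 to 3139 CPM in the other libraries, and TRPM8 was at 0 in both. None of these 8 genes was a member.

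The DMSO library held 909176 counts and the treated library 581208. Mitochondrially encoded genes took 8.52% and 9.41% of the counts, cytosolic ribosomal protein genes 7.32% and 7.17%, and pseudogenes 5.48% and 5.49%. The unequal depth made the membership rule lopsided. It admitted 1756 genes through the DMSO library alone, 57 through the treated library alone and 4682 through both. At 100 counts in the DMSO library and an equal level in the other, the 95% counting interval of the log2 ratio ran from −0.48 to 0.47, and at 20 counts from −1.22 to 1.05. All intervals given here are exact (Clopper-Pearson) and cover counting error only. At the lower end, 170 members had 20 counts in their higher library, with 5 genes higher and 14 lower by 2-fold, and the 203 genes just outside at 19 counts had 4 and 15.

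The log2 ratio of SEL120-34A over DMSO, with a prior count of 0.5, had a median of −0.01 over the members. It was 1 or more, that is 2-fold or more, in 93 members (1.43% of them), and −1 or less in 210 members (3.23%). These counts depend on the filter, since a gene admitted by the deeper library alone can hardly be higher in the other. Among the 4682 genes with 20 or more counts in both libraries, 50 were higher and 11 lower by 2-fold, and 199 of the 210 lower genes were members through the DMSO library alone. With the DMSO library thinned to the depth of the treated one, 116 genes were higher and 112 lower. The counting interval lay wholly above 0 in 506 members (7.79%) and wholly below 0 in 400 (6.16%). Replicate libraries of the other lines gave intervals off 0 at similar shares, as given below.

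The size of replicate error in this assay was taken from the other lines, where the 4 groups of 3 libraries gave 12 pairs of replicates. Among genes with 100 or more counts in both libraries of a pair, the spread of log2 ratios beyond counting error was 0.17 (SD) between the PC3 libraries, over 1066 genes. It was 0.07 to 0.23 between replicates, with a median of 0.13. Treated against control libraries gave 0.20 to 0.30 in LNCaP and 0.21 to 0.44 in 22Rv1. The PC3 pair thus lay inside the range of the replicate pairs and below each of the 18 treated against control pairs of the other lines. Without the limit of 100 counts, 13.9% of the PC3 genes had a counting interval off 0. This share was 6.90% to 16.4% between replicates, 12.5% to 20.4% for treatment in LNCaP and 12.9% to 26.8% in 22Rv1. The share past 2-fold was 4.67% in PC3 and 2.30% to 6.27% between replicates. In the 18 treated against control pairs it was 4.75% or more. An interval off 0 thus does not by itself set a PC3 gene apart from replicate error.

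**Figure D1:**
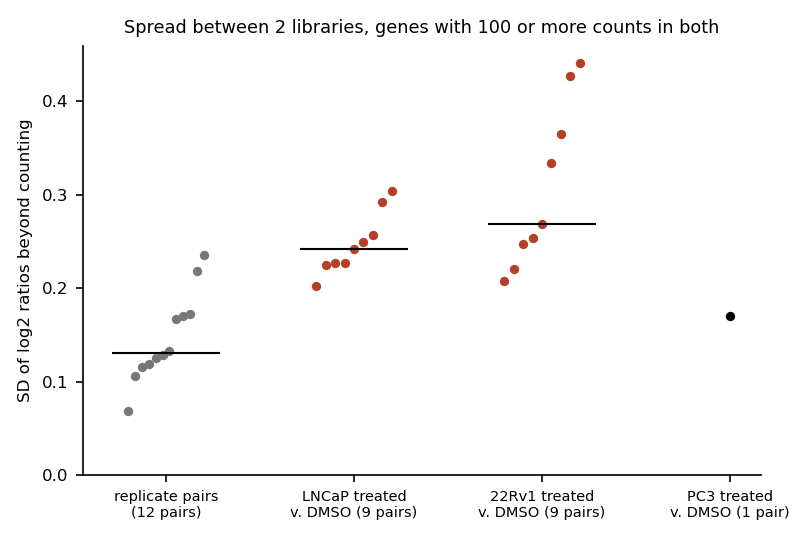
Standard deviation of log2 ratios beyond counting error (vertical axis, log2 units) for pairs of libraries, over genes with 100 or more counts in both; each point is 1 pair and each line a median. The PC3 pair, at 0.17, lies among the 12 replicate pairs (0.07 to 0.23) and below the 18 treated against control pairs of LNCaP and 22Rv1.

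A limit for single genes was set from the same 12 pairs. For each class of counts, the 99th percentile of the absolute log2 ratio between replicates was found in each pair, and the highest of the 12 was used. It was 2.10 for genes with a geometric mean under 20 counts, 1.44 for 20 to 50, 1.08 for 50 to 100, 0.99 for 100 to 200, 0.90 for 200 to 500 and 0.99 for 500 or more. In PC3, 46 members (0.708%) lay past this replicate limit, 27 higher and 19 lower. Of these, 20 of the 27 and 5 of the 19 had 20 or more counts in both libraries. The rest were members only through the library in which they were high, so their direction is in part set by the membership rule. By construction about 1% of the genes of the widest replicate pair in a class, and fewer of the other pairs, lie past this limit, so a count of 46 does not by itself set the PC3 pair apart from replicates. Between 200 and 500 counts the PC3 percentile itself was 1.06, above the 0.40 to 0.90 of the 12 pairs, and under 20 counts it was 2.20, above their 1.67 to 2.10. In the 4 other classes it lay within their range.

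The genes in that tail were mostly ones that the other lines express little. Of the 27 higher genes, 20 had fewer than 20 counts in each of the 12 LNCaP and 22Rv1 libraries, as had 10 of the 19 lower genes and 1243 (19.1%) of all members. Replicate error could therefore not be measured for most of these genes themselves. In bulk samples, fewer cells of a type and less RNA per cell cannot be told apart.

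**Figure D2:**
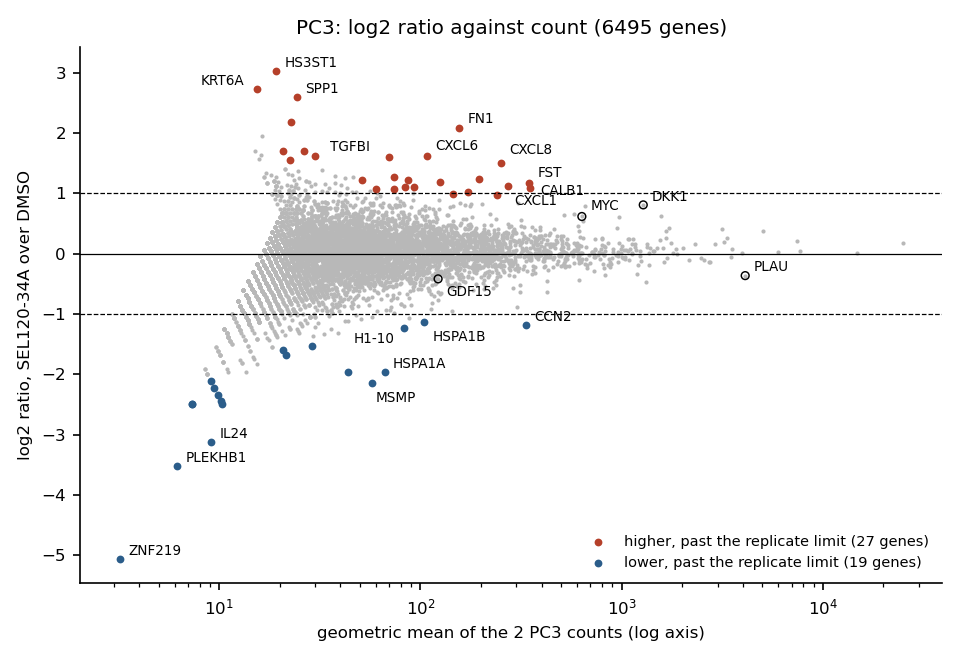
Log2 ratio of SEL120-34A over DMSO in PC3 (vertical axis) against the geometric mean of the 2 counts (log axis) for the 6495 members; dashed lines mark 2-fold. Coloured points are the 27 higher (red) and 19 lower (blue) genes past the replicate limit, and open circles mark MYC, GDF15, PLAU and DKK1, labelled genes inside it. The band of grey points that runs down to the left is made of genes that passed 20 counts through the deeper DMSO library.

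The chemokines that bind CXCR1 and CXCR2 and attract neutrophils were higher in the treated library. CXCL8 (interleukin 8, ENSG00000169429.12, chromosome 4, 73740519 to 73743716, GRCh38) had 188 counts with DMSO and 332 with SEL120-34A, that is 205 and 582 CPM. Its log2 ratio was 1.50 (95% counting interval 1.25 to 1.77), past the replicate limit of 0.90. CXCL6 had 78 and 149 counts (84.9 and 261 CPM), a log2 ratio of 1.61 (1.22 to 2.04, limit 0.99). CXCL1 had 234 and 315 counts (255 and 552 CPM), a log2 ratio of 1.11 (0.87 to 1.37, limit 0.90). The treated library was thus higher at more than 2-fold for each of these 3 genes in spite of its lower depth. CXCL5 had 10 and 25 counts, a log2 ratio of 1.95 (0.90 to 3.23), which stayed under the limit of 2.10 for its class of counts. CXCL3 had 15 and 22 counts (1.21, 0.23 to 2.29), also under its limit. CXCL2 went the other way, with 31 and 15 counts and a log2 ratio of −0.35 whose interval of −1.35 to 0.57 included 0. In the 12 libraries of LNCaP and 22Rv1, none of these chemokines had more than 3 counts.

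These genes are neighbours on chromosome 4. The stretch from CXCL8 to AREG was looked at after their values were seen. It holds 14 protein-coding genes, 4 of which had no count in PC3. AREG, an EGF receptor ligand at its far end (74455005), had 72 and 96 counts, a log2 ratio of 1.10 (0.65 to 1.56), past its limit of 1.08. MTHFD2L, a mitochondrial enzyme gene between them, had 15 and 4 counts, with an interval from −3.27 to 0.43. CXCL1, CXCL2 and CXCL3 are near-identical copies in part, as are CXCL5 and CXCL6, and how reads matching several genes were counted is not given in the sources used here, so the split between copies is uncertain.

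The promoters of the 6 chemokines are shown because the genes sit together and 5 of the 6 were higher. Each line gives the 150 bases before the RefSeq start (GRCh38.p14, 5′ to 3′ on the gene's strand), with GGAATTTCC, a kappaB sequence that NF-kB is known to bind, in capitals.
CXCL8, chr4:73740419-73740568, plus strand: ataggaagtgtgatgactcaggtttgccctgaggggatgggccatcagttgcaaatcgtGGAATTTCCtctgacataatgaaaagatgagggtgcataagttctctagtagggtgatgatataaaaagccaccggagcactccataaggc
CXCL6, chr4:73836528-73836677, plus strand: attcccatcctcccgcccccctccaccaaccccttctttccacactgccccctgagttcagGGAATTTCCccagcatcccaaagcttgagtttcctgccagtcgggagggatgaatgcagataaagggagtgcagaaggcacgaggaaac
CXCL1, chr4:73869243-73869392, plus strand: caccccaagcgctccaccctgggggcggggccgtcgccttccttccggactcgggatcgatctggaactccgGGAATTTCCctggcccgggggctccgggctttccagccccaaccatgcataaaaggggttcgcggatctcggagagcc
CXCL5, chr4:73998678-73998827, minus strand: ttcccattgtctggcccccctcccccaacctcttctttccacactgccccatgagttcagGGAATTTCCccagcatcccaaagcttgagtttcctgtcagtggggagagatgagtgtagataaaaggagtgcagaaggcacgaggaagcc
CXCL3, chr4:74038690-74038839, minus strand: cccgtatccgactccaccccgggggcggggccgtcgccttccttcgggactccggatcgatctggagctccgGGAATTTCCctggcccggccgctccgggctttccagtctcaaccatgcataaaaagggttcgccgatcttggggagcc
CXCL2, chr4:74099196-74099345, minus strand: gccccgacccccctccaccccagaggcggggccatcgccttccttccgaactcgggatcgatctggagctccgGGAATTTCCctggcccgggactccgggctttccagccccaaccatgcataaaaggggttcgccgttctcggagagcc
Searched on both strands, this sequence stood in all 6 windows, from 77 (CXCL2) to 91 (CXCL8) bases before the start, and in 89 of 35116 RefSeq promoter windows of this length (0.253%). CXCL2, which was not higher, has it too. The windows of CXCL1, CXCL2 and CXCL3 are largely alike, as are those of CXCL5 and CXCL6, so the 6 matches are not independent. A match describes letters and is not a measure of binding.

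Across the whole list of NF-kB and inflammatory genes, 24 of 45 were members. Of these, 5 were higher by 2-fold, all of them the chemokines above, and 1 was lower, TNFAIP8 (33 and 9 counts). The counting interval lay above 0 in 6 of the 24 (25%, against 7.79% of all members), these 5 chemokines and PTX3. It lay below 0 in TNFAIP8 alone (4.17%, against 6.16%). CXCL5 and CXCL3 were members through the treated library alone, and TNFAIP8 through the DMSO library alone. Of the 57 members admitted by the treated library alone, 43 were higher by 2-fold and 45 had an interval above 0. The direction of these 3 genes is thus in part set by the membership rule. PTX3, a soluble pattern receptor, had 72 counts in each library (log2 ratio 0.68, 0.20 to 1.18). The median log2 ratio of the list was 0.19, beside −0.01 for all members. NFKBIA, the inhibitor that NF-kB itself induces, had 177 and 89 counts, with an interval of −0.69 to 0.07, and IL1B had 96 and 73 counts (−0.17 to 0.75). IL6 had 26 and 9 counts (−2.12 to 0.30). For the 17 members of the list other than these 7 a difference was not detectable at this depth.

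Several genes of the extracellular matrix were higher too. FN1 encodes fibronectin, a matrix glycoprotein that integrins bind (chromosome 2, 215360440 to 215436073). It had 95 counts with DMSO and 252 with SEL120-34A, 103 and 442 CPM, and its log2 ratio of 2.09 (1.75 to 2.45) was far past its limit of 0.99. SPP1 (osteopontin, a secreted phosphoprotein) had 12 and 47 counts, a log2 ratio of 2.60 (1.72 to 3.71, limit 1.44). TGFBI, a matrix protein that TGF-beta induces, had 50 and 95 counts, a log2 ratio of 1.60 (1.10 to 2.14, limit 1.08). All 3 were higher in the treated library in raw counts as well. HAS2, a hyaluronan synthase, had 72 and 104 counts (1.21, 0.77 to 1.67, limit 1.08).

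Urokinase and its receptor differed in direction. PLAUR, the receptor, had 104 and 148 counts (log2 ratio 1.19, 0.82 to 1.57), past the limit of 0.99. PLAU, urokinase itself, had 5921 and 2853 counts. It was lower in the treated library, at 6446 and 5003 CPM, a log2 ratio of −0.37 (−0.43 to −0.30), which was outside counting error and inside the replicate limit of 0.99.

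Of 62 matrix, integrin and mesenchymal genes, 42 were members. The interval lay above 0 in 12 (28.6%) and below 0 in 6 (14.3%), both over the shares of all members, and the median log2 ratio was 0.00. The 3 higher by 2-fold were FN1, PLAUR and CDH2, the N-cadherin of mesenchymal cells (30 and 38 counts, 1.01, inside its replicate limit). CAV1 and CAV2, which build caveolae, were higher, CAV1 with 585 and 574 counts (0.66, 0.49 to 0.83). S100A4 (24 and 4 counts), LAMB1 (56 and 18) and TIMP2 (150 and 65) were lower, with intervals below 0. S100A4 and LAMB1 were members through the DMSO library alone. The direction of the list's median turned in 5 of its alternative settings, so the list as a whole had none.

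Among TGF-beta and YAP target genes, 18 of 35 were members. TGFBI (above) was among the higher ones, and CCN2 was lower by 2-fold. CCN2 (connective tissue growth factor, a matricellular protein) had 639 counts with DMSO and 175 with SEL120-34A, 696 and 307 CPM, with a log2 ratio of −1.18 (−1.43 to −0.94, limit 0.90). It was the best counted of the 19 lower genes past the limit. Its relative CCN1 stayed level, at 693 and 424 counts and an interval of −0.20 to 0.16. CCN2 had at most 11 counts in a library of the other lines. The 150 bases before its start are shown with GGAATG, a sequence that the TEAD partners of YAP are known to bind, in capitals.
CCN2, chr6:131951373-131951522, minus strand (GRCh38.p14): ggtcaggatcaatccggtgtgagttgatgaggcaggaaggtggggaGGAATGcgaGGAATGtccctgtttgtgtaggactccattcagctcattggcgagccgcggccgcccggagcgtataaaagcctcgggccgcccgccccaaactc
The window held 2 such matches, the farther one 104 bases before the start. At least 1 match on either strand stood in 7.08% of all RefSeq promoter windows of this length.

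The remaining genes with large, well counted rises have varied roles. FST (follistatin, which binds activins) had 293 and 409 counts, a log2 ratio of 1.17 (0.95 to 1.39, limit 0.90). CD55, a brake on complement at the cell surface, had 160 and 235 counts (1.24, 0.95 to 1.54, limit 0.99). CALB1, a calcium-binding protein, had 306 and 402 counts (1.08, 0.86 to 1.30, limit 0.90). These 3 genes stood at 174 to 333 CPM with DMSO and at 412 to 717 CPM with SEL120-34A. DKK1, a secreted WNT antagonist, had 1228 and 1334 counts, a log2 ratio of 0.81 (0.69 to 0.92) under its limit of 0.99.

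The largest ratios belonged to genes with few counts in the DMSO library. HS3ST1, a heparan sulfate sulfotransferase, had 8 and 43 counts (log2 ratio 3.02, 2.01 to 4.41). KRT6A, a keratin of stressed epithelium, had 7 and 31 (2.73, 1.62 to 4.26), with near-identical copies that could share its reads. HHEX, a homeobox transcription factor, had 13 and 38 counts (2.18, 1.29 to 3.27). GJA1, which encodes the gap junction protein connexin 43, had 18 and 37 (1.69, 0.88 to 2.63), and FABP4, a fatty acid carrier, had 21 and 41 (1.62, 0.86 to 2.49). All 5 lay past the replicate limits of their count classes. Of these, FABP4 had at least 20 counts in both libraries, and the other 4, like SPP1 and CXCL5, were members only through the treated library in which they were high, so their size is in part set by the membership rule.

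**Figure D3:**
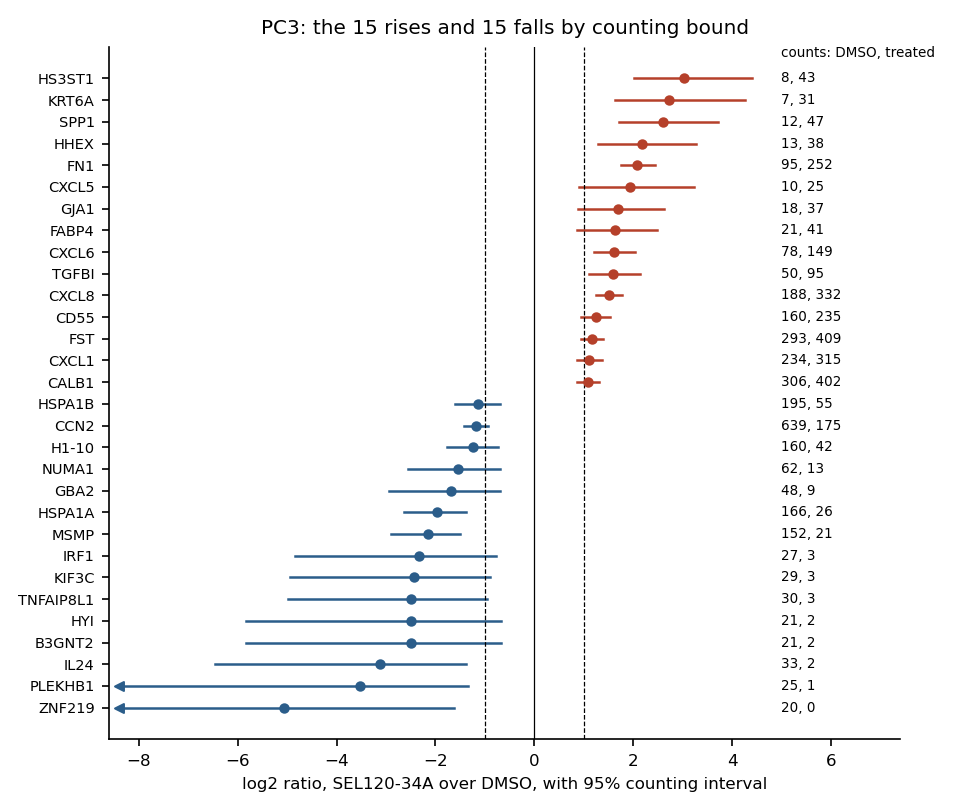
Log2 ratio of SEL120-34A over DMSO in PC3 (horizontal axis, points) with 95% counting intervals (lines) for the 15 higher and 15 lower genes whose interval lies farthest from 0; the counts in the DMSO and treated library stand at the right. Arrowheads mark intervals that run off the axis. Of the 15 lower genes, 10 had fewer than 20 counts in the treated library, and FN1, CXCL8, FST, CXCL1, CALB1 and CCN2 have the narrow intervals of well counted genes.

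The inducible HSP70 genes were lower. HSPA1A had 166 counts with DMSO and 26 with SEL120-34A, 181 and 45.6 CPM, a log2 ratio of −1.97 (−2.64 to −1.38, limit 1.08). HSPA1B had 195 and 55 counts, 212 and 96.4 CPM, a log2 ratio of −1.13 (−1.60 to −0.70, limit 0.99). These genes on chromosome 6 (HSPA1A 31815543 to 31817946, HSPA1B 31827738 to 31830254) are near-identical, and the split of reads between them is uncertain. Both were low in the treated library. Their promoters, likewise near-identical, are shown with GAANNTTC, the core of the heat shock element, in capitals.
HSPA1A, chr6:31815393-31815542, plus strand (GRCh38.p14): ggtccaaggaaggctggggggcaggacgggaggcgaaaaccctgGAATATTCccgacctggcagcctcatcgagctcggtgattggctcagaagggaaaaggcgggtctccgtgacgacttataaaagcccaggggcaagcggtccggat
HSPA1B, chr6:31827588-31827737, plus strand (GRCh38.p14): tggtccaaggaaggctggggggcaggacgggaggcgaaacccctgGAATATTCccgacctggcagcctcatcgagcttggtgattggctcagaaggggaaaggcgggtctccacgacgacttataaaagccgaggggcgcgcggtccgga
Each window held 1 match, 106 and 105 bases before the start, and 3.26% of all promoter windows held at least 1. Of 25 cytosolic heat shock chaperones, 23 were members, with the interval below 0 in 5 (21.7%, against 6.16% of all members) and above 0 in 1 (4.35%, against 7.79%), and a median of −0.07. HSP90AA1 (1189 and 578 counts) was lower at −0.35 (−0.50 to −0.21), while HSPA8, the constitutive HSC70, had 1166 and 689 counts and an interval of −0.21 to 0.07, and DNAJB1 one of −0.29 to 0.17.

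Of the other lower genes in the plot of intervals, MSMP and H1-10 had 20 or more treated counts. MSMP, a secreted microseminoprotein, had 152 and 21 counts (165 and 36.8 CPM), a log2 ratio of −2.15 (−2.90 to −1.50, limit 1.08). H1-10, a linker histone, had 160 and 42 counts (−1.23, −1.77 to −0.74, limit 1.08). HES1, a repressor downstream of Notch that was named after its values were seen, had 520 and 175 counts, a log2 ratio of −0.88 (−1.14 to −0.63) inside its limit.

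The 10 others rested on fewer than 20 treated counts and were members only through the DMSO library in which they were high. Of the 1756 members admitted so, 199 were lower by 2-fold and 0 higher. The direction and size of these 10 are thus in part set by the membership rule. ZNF219, a zinc finger protein, had 20 counts with DMSO and 0 with SEL120-34A, at least 4.14-fold lower when 3 counts are taken as the floor of the treated library. IL24, a cytokine of the IL-10 family, had 33 and 2 counts (−3.13, −6.46 to −1.39) and PLEKHB1 had 25 and 1. TNFAIP8L1 (30 and 3 counts), KIF3C (29 and 3), IRF1 (27 and 3), B3GNT2 (21 and 2) and HYI (21 and 2) had log2 ratios of −2.49 to −2.34. NUMA1, a spindle protein, had 62 and 13 counts (−1.54), and GBA2, a glucosylceramidase, had 48 and 9 (−1.69). The genes GBA2 (35736866 to 35749228) and MSMP (35752990 to 35756613) lie close together on chromosome 9, and whether their lower values are linked was not tested. Past the limit, a gene with no symbol (ENSG00000275216) was lower too, with 108 and 17 counts, and was likewise a member through the DMSO library alone.

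MYC and many genes of ribosome biogenesis were higher. MYC, the transcription factor, had 650 counts with DMSO and 618 with SEL120-34A, 708 and 1084 CPM, a log2 ratio of 0.61 (0.45 to 0.78), outside counting error and under the replicate limit of 0.99. MAX, its dimer partner, had 103 and 106 counts (0.73, 0.32 to 1.13). Of 108 genes of ribosome biogenesis and other MYC targets, 93 were members, 74 higher and 19 lower in the treated library. Over all 6495 members, 3145 were higher and 3350 lower. None of the 93 lay past the replicate limit. The interval lay above 0 in 20 (21.5%) and below 0 in 1 (1.08%), against 7.79% and 6.16% of all members. Among them were SLC7A5, an amino acid transporter (74 and 84 counts, 0.86), LYAR (35 and 43, 0.97) and GNL3, nucleostemin (55 and 60, 0.81). The interval below 0 was that of HSP90AB1, a chaperone (−0.10). The list's median was 0.24, and over the alternative settings it stayed between 0.20 and 0.26. The same median differed by 0.12 (root mean square) between replicate libraries of the other lines.

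Mitochondrial ribosomal proteins leaned the same way. Of 78 genes, 68 were members, 51 of them higher, against 3145 of all 6495 members. The interval was above 0 in 18 (26.5%, against 7.79% of all members) and below 0 in none (against 6.16%). The median was 0.18, against 0.09 (root mean square) between replicates. MRPL53 (16 and 27 counts, log2 ratio 1.41) and MRPL41 (35 and 44, 1.00) were the 2 that reached 2-fold. None of the 68 lay past the replicate limit, and MRPL53 was a member through the treated library alone. The 13 mitochondrially encoded members had a median of 0.26, with 9 intervals above 0 (69.2%, against 7.79% of all members), but this median differed by 0.33 between replicates. Cytosolic ribosomal proteins had a median of 0.02 over 74 genes. Their interval was above 0 in 9 (12.2%, against 7.79% of all members) and below 0 in 7 (9.46%, against 6.16%).

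**Figure D4:**
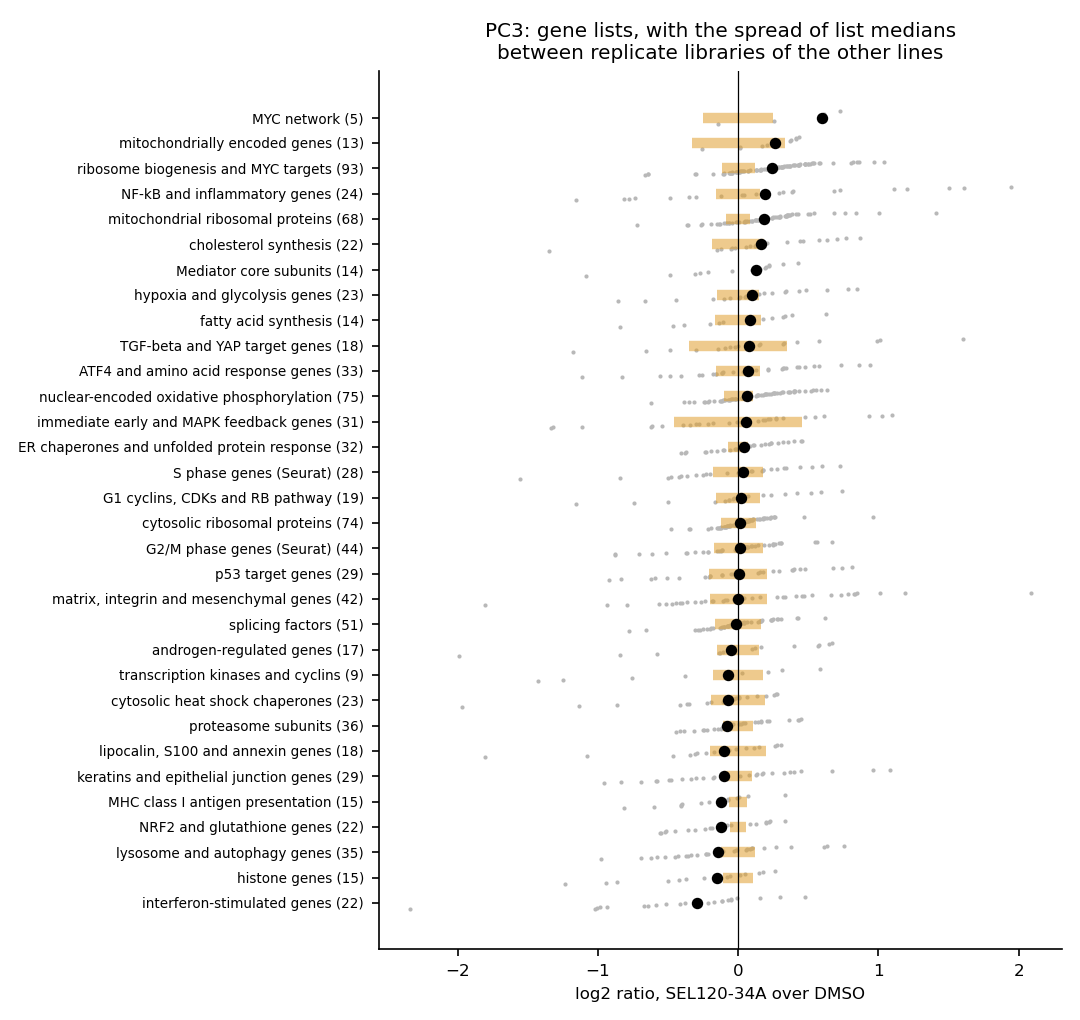
Median log2 ratio of SEL120-34A over DMSO in PC3 (black points) for 32 gene lists with 5 or more members, the number of members in brackets; grey points are single genes. Orange bars span the root mean square of the list's median between replicate libraries of LNCaP and 22Rv1, on both sides of 0, for the 30 lists that had a value in all 12 pairs. In 4 lists (MYC network, ribosome biogenesis and MYC targets, mitochondrial ribosomal proteins, NRF2 and glutathione genes) the median lies past 2 such spans.

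In other lists more members were lower than higher. Of 65 interferon-stimulated genes, 22 were members, 19 of them lower, against 3350 of all 6495 members. The interval was below 0 in 4 (18.2%, against 6.16% of all members) and above 0 in none. These were IRF1, ISG15, a ubiquitin-like modifier (322 and 133 counts, −0.59, −0.89 to −0.29), UBE2L6, its conjugating enzyme (53 and 17, −0.94) and EIF2AK2, the RNA-activated kinase PKR (42 and 13, −0.98). IRF1, UBE2L6 and EIF2AK2 were members through the DMSO library alone. The 1756 members admitted so had a median log2 ratio of −0.36, with 164 intervals below 0 and 0 above. The lean of this list is thus in part set by the membership rule. The list's median was −0.29 and ran from −0.59 to −0.14 over the settings. Among lipocalin, S100 and annexin genes, 6 of 18 members (33.3%, against 6.16% of all members) had an interval below 0 and 2 (11.1%, against 7.79%) above. S100A9, a subunit of calprotectin, had 160 and 47 counts (−1.07, −1.58 to −0.60), inside its replicate limit of 1.08. Of 22 NRF2 and glutathione genes, 5 (22.7%) had an interval below 0 and 1 (4.55%) above. SQSTM1, the autophagy receptor p62 (629 and 286 counts, −0.45), and NQO1, a quinone reductase (104 and 44, −0.55), were lower, while TXN, thioredoxin (307 and 241), was higher at 0.34. Of 35 lysosome and autophagy genes 6 (17.1%) were lower by the interval, among them PSAP (−0.58) and GRN (−0.52), precursors of lysosomal proteins. The interval was above 0 in 3 (8.57%, near the 7.79% of all members), NPC1, NPC2 and LIPA. Of 15 histone genes, 3 had an interval below 0 and none above (against 6.16% and 7.79% of all members), among them H1-10 and the variant H2AZ2.

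Cell cycle and p53 lists had medians near 0. The median was 0.04 over 28 S phase genes and 0.01 over 44 genes of G2 and M phase. Intervals lay above 0 in 2 genes of each list (7.14% and 4.55%, against 7.79% of all members). They lay below 0 in 2 and 1 (7.14% and 2.27%, against 6.16% of all members). Of 29 p53 target members 4 (13.8%, against 7.79% of all members) had an interval above 0 and 2 (6.90%, against 6.16%) below. Their median was 0.01, and PC3 cells are known to lack p53. CDKN1A, the cell cycle inhibitor p21, had 20 and 21 counts, with an interval from −0.20 to 1.72. Cholesterol synthesis genes had a median of 0.16 over 22 members, with 5 intervals above 0 (22.7%, against 7.79% of all members), among them HMGCS1 and FDFT1, and 1 below (4.55%, PMVK). Immediate early and MAPK feedback genes went both ways. Of 31 members, the interval was above 0 in 8 (25.8%, against 7.79% of all members) and below 0 in 3 (9.68%, against 6.16%). The median was 0.06, against 0.46 (root mean square) between replicates. GEM (40 and 51 counts) and AREG were higher by 2-fold. SPRY1 (66 and 16), ATF3 (81 and 23) and NR4A1 (21 and 5, with an interval up to 0.06) were lower by 2-fold. Of these genes only AREG lay past its replicate limit, and SPRY1 and NR4A1 were members through the DMSO library alone.

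The drug targets themselves were near the limit of detection. CDK8 had 19 and 12 counts and CDK19 7 and 3, so neither was a member. MED12 had 18 and 8 counts, with an interval from −1.89 to 0.79. CCNC, cyclin C, had 103 and 80 counts (0.32, −0.12 to 0.76), and MED13 had 21 and 14. Of 26 core Mediator subunits 14 were members, and 1 of them, MED24 (93 and 27 counts, −1.09, −1.77 to −0.47), had an interval off 0. That is 7.14% with an interval below 0, near the 6.16% of all members. SEL120-34A blocks the activity of the kinases, so these counts say nothing on whether it acted.

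Replicated changes in the other lines were set beside the PC3 values. In a fit of the 12 LNCaP and 22Rv1 libraries over 7086 genes, edgeR's quasi-likelihood test called 1.99% of genes higher and 0.776% lower in LNCaP, and 4.15% higher and 1.55% lower in 22Rv1 (Benjamini-Hochberg adjusted p under 0.05). Of the 93 PC3 genes higher by 2-fold, 43 could be tested there. FN1 was called higher in LNCaP, MT-TD and SDC2 higher in 22Rv1 and KIF20A lower in 22Rv1. Of the 210 lower by 2-fold, 119 could be tested. None was called lower in LNCaP and 1, USP16, was in 22Rv1, while 2 were called higher in LNCaP and 4 in 22Rv1, SMPDL3A in both. These shares were near those of the 5407 members tested there, of which 1.76% were called higher in LNCaP and 4.36% in 22Rv1.

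Members with a counting interval above 0 were called higher elsewhere at a larger share. Of 404 that could be tested, 47 (11.6%) were called higher in 22Rv1 and 20 (4.95%) in LNCaP. Called lower were 2 (0.495%) in 22Rv1 and 7 (1.73%) in LNCaP, against 1.76% and 0.906% of the 5407 members tested there. In LNCaP the share called lower was thus larger too. Of 311 with an interval below 0, 13 (4.18%) were called higher in 22Rv1 and 9 (2.89%) lower, and in LNCaP 6 (1.93%) were called higher and 3 (0.965%) lower. Both the interval and the call favour well counted genes, and the part of depth in these shares was not tested. Mitochondrially encoded genes were among the shared ones, with MT-CYB, MT-ND1, MT-ND2 and MT-ND4 called higher in both lines and above 0 in PC3.

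FN1 rose in LNCaP from 155 ± 22.2 to 607 ± 212 CPM (SD, n = 3), a log2 change of 1.96 ± 0.21 (SE) with an adjusted p of 9.21e-09 by edgeR. The 3 treated LNCaP libraries were all above the 3 controls, and in 22Rv1 the level was 273 ± 107 and 247 ± 6.64 CPM (adjusted p = 0.845). SAT1, which breaks down polyamines, had 193 and 211 counts in PC3 (0.81, 0.53 to 1.11) and rose by 2.20 ± 0.21 in LNCaP (adjusted p = 6.23e-10, edgeR). CD24, a surface glycoprotein, had 217 and 263 counts in PC3 (0.96, 0.70 to 1.23, limit 0.90) and rose from 10.4 ± 5.39 to 59.6 ± 16.4 CPM in LNCaP (log2 change 2.51, adjusted p = 1.53e-05, edgeR). These 3 genes were the highest by PC3 interval among the 95 members called higher in LNCaP. Of the 95, 20 (21.1%, against 7.79% of all members) had a PC3 interval above 0. The interval was below 0 in 6 (6.32%, near the 6.16% of all members).

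**Figure D5:**
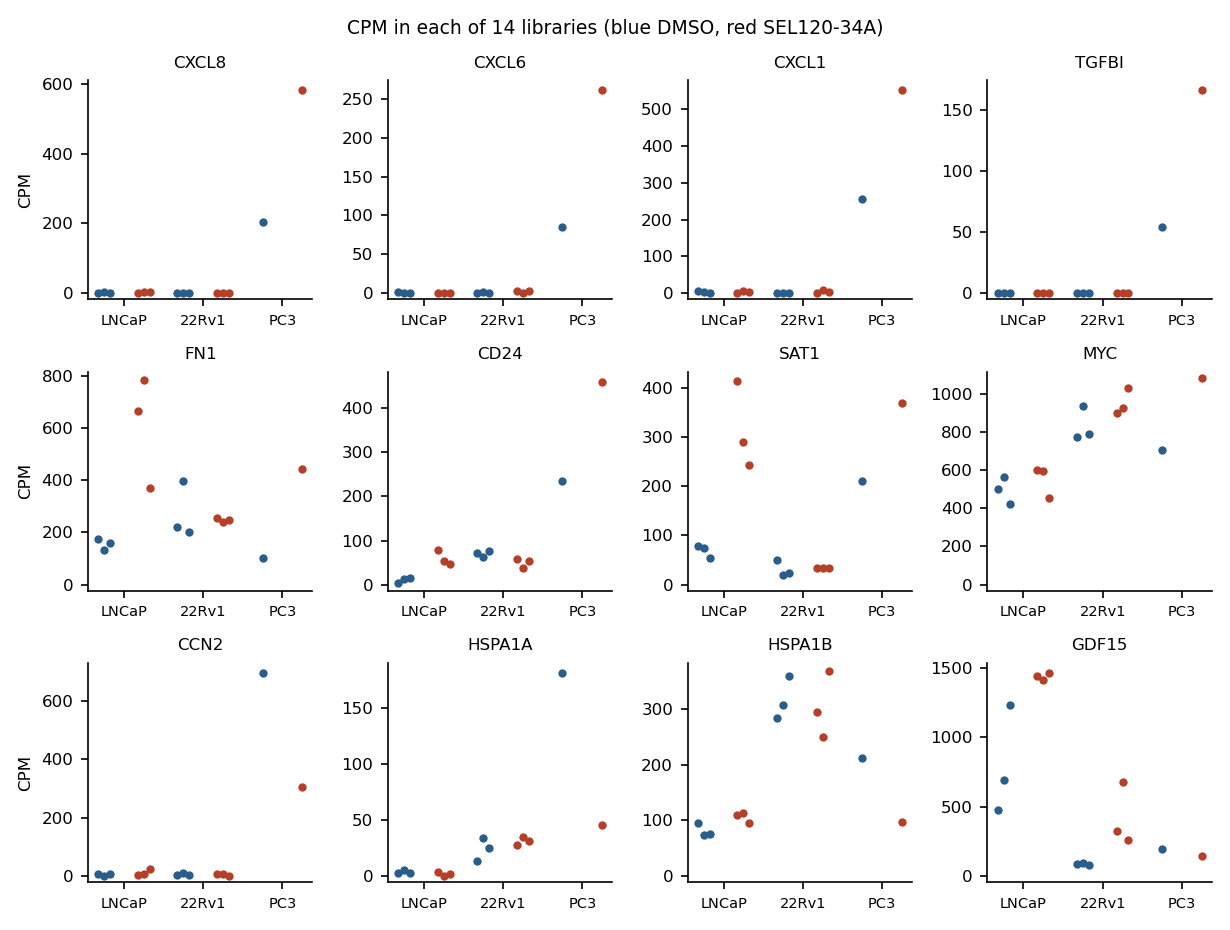
CPM (vertical axis, each panel on its own scale from 0) of 12 genes in each of the 14 libraries; blue points are DMSO and red points SEL120-34A, 3 per arm in LNCaP and 22Rv1, 1 per arm in PC3. CXCL8, CXCL6, CXCL1, TGFBI and CCN2 are near 0 outside PC3, FN1, CD24 and SAT1 are higher with treatment in LNCaP and in the PC3 pair, and GDF15 is higher with treatment in LNCaP and 22Rv1 and lower in the PC3 pair.

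GDF15, a stress-induced cytokine, rose in both other lines and was lower in PC3, with 179 and 83 counts (−0.42, −0.81 to −0.04). Most other genes with the largest changes elsewhere had PC3 intervals that included 0. IGFBP3, a carrier of insulin-like growth factors, rose by 3.10 in LNCaP (adjusted p = 1.35e-11, edgeR) and had 211 and 116 counts in PC3, an interval of −0.52 to 0.16. TSC22D3, a glucocorticoid-induced gene, rose by 3.54 in 22Rv1 (adjusted p = 1.04e-06, edgeR) and had 40 and 37 counts in PC3 (0.57, −0.11 to 1.26). SFN, a p53 target, rose by 2.07 in 22Rv1 (adjusted p = 7.21e-11, edgeR) and had 201 and 115 counts in PC3 (−0.46 to 0.22). DDIT4, an inhibitor of mTORC1, rose by 2.03 there and was at 0.44 in PC3 (−0.06 to 0.94). RBM3, a cold-inducible RNA-binding protein, fell in LNCaP (−1.33) and 22Rv1 (−0.73) and was lower in PC3 as well, with 201 and 79 counts (−0.66, −1.05 to −0.28). Its call in 22Rv1 (adjusted p = 0.0141, edgeR) was lost without DMSO replicate 1 or SEL120-34A replicate 2, with adjusted p up to 0.191 over its alternatives. AGR2, a disulfide isomerase of secretory cells, fell by 1.52 on the log2 scale in 22Rv1 and had 285 and 125 counts in PC3 (−0.50, −0.82 to −0.19). CDC20, which drives exit from mitosis, fell in both other lines (−0.96 and −0.74) and had 186 and 143 counts in PC3 (0.31, −0.02 to 0.63). Its call was lost in LNCaP without SEL120-34A replicate 2 and in 22Rv1 without DMSO replicate 3 or SEL120-34A replicate 1 or 2. KLK3 and KLK2, the kallikreins that fell in LNCaP, had 7 and 6 and 7 and 2 counts in PC3.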

How the data were processed

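Per the labels and the methods of the study, the authors prepared BRB-seq (3′ tag) libraries, aligned and counted the reads with STARsolo on GRCh38.p13 and deposited raw counts for 62703 genes in 14 libraries, and log2 values (log2 CPM after TMM scaling) for 9638 of them. Whether molecular identifiers were collapsed is not given in the sources used here.

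PC3 members had at least 20 counts in 1 of the 2 PC3 libraries. Counts were scaled as in the deposited log2 values, and log2 ratios used a prior count of 0.5 with exact 95% Clopper-Pearson intervals. Named genes were a preset panel, the 15 highest and 15 lowest by the interval's bound nearest 0, up to 4 each way per list, markers, and the 5 largest changes each way in the other lines. HES1, HAS2, NFKBIA, IL1B, IL6, CCN1, HSPA8, DNAJB1, MTHFD2L and ENSG00000275216 were added after their values were seen. LNCaP and 22Rv1 were fitted with edgeR 4.0.16 (quasi-likelihood test, TMM, Benjamini-Hochberg) in R 4.3.3. Alternatives used DESeq2 1.42.0 and limma 3.58.1. S and G2/M lists came from Seurat 5.3.0, coordinates from GENCODE 44 and promoters from RefSeq. The scripts were tested on simulated data. The study's methods describe replicates in general as biological, with exceptions where stated, and the labels do not say which libraries came from separate cultures, so p-values measure the spread between these libraries. The members and lists were chosen with earlier results of these data known. Some items of the naming rule are not reported here.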

Additional observations from a re-analysis of the deposited data

Results flagged for a closer look

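GDF15, a stress-induced cytokine of the TGF-beta family, went against the other lines in PC3. It had 179 counts with DMSO and 83 with SEL120-34A, 195 and 146 CPM, a log2 ratio of −0.42 (95% counting interval −0.81 to −0.04), inside the replicate limit of 0.99 for its count class. In 22Rv1 it rose from 86.1 ± 9.57 to 421 ± 225 CPM (SD, n = 3), a log2 change of 2.26 with an adjusted p of 2.51e-07 by edgeR, and all 3 treated libraries lay above the 3 controls. In LNCaP it rose by 0.87 (adjusted p = 0.0103, edgeR), again without overlap, but this call was lost in 4 of 19 alternatives, which included leaving out LNCaP DMSO replicate 1 or 2, with adjusted p up to 0.494. The difference between the lines was not tested, since PC3 has 1 library per arm.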

How the results depend on the processing

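The numbers of PC3 genes past 2-fold (93 higher, 210 lower) depended on the filter and threshold: 50 and 11 with 20 counts in both libraries, 240 and 530 with 10 counts in at least 1, 23 and 28 with 50 counts in at least 1, and 402 and 717 at 1.5-fold. The lower genes were 137 by the deposited log2 values, which shrink low counts more, and 112 with the DMSO library thinned. Other scalings and a prior count of 2 kept both counts within 1.5 times, and the spread of the ratios moved little under any setting. Of the PC3 genes named, CDK8, whose ratio is near 0, changed direction with scaling by library totals, as did the medians of the S, G2/M, p53 target and cytosolic ribosomal protein lists, all within 0.05 of 0. DESeq2's Wald test called 90 genes in LNCaP and 242 in 22Rv1, limma-trend 41 and 201, and testing without a filter 260 in 22Rv1, against 196 and 404. Leaving out 1 library gave 87 to 239 in LNCaP and 158 to 446 in 22Rv1. The count fell by more than 1.5 times without DMSO replicate 2 or 3 or SEL120-34A replicate 1 or 2, in either line. With the replicate block, 240 and 450 genes were called. Same-numbered libraries did not deviate together (correlations −0.05 to 0.12), so no pairing was assumed, and PC3, with 1 library per arm, could not be paired or tested. Depth limits what a PC3 value can show: with 20 DMSO counts at an equal level, the counting interval spans −1.22 to 1.05.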
